A study of Mus musculus with 2 samples.

Results

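The genes described are 10 that govern the G1 phase of the cell cycle or belong to the core of the p53 response: the D cyclins Ccnd1, Ccnd2 and Ccnd3, the CDK inhibitors Cdkn1a, Cdkn1b and Cdkn2d, the p53 gene Trp53 with its inhibitor Mdm2, and the p53 targets Ccng1 and Btg2. They were picked by name, though with earlier results of these data known. All 10 were found among the 55536 annotated genes of the series, of which 22028 are protein-coding. Together they have 61 annotated transcripts.

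The libraries are total RNA-seq, depleted of ribosomal RNA, made from nucleoplasmic RNA of macrophages that were grown from C57BL/6J mouse bone marrow. The cells had received Lipid A, the Toll-like receptor 4 ligand within bacterial lipopolysaccharide, at 100 ng/ml for 12 h, had then spent 12 h after washout, and were collected at 0 min of restimulation. All samples belong to this 1 group: biological replicate 1, made from 1 µg of RNA, and biological replicate 2, made from 500 ng. Both come from separate biosamples that share 1 donor entry, no age or sex was recorded, and nothing states that cultures or animals were separate, so the spread between the libraries may be technical.

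In replicates 1 and 2, expected counts over annotated genes came to 22907877 and 18612405, and the estimated counts of a second deposited quantification to 30419009 and 32279044. All 10 macrophage markers examined were at a TPM (a level per transcript length, scaled to a fixed sum per library) of 10 or more in both libraries, from Lyz2 at 1368 and 1126 TPM to Cd14 at 37.9 and 36.6 TPM, and summed to 3624 and 2954 TPM. Of 25 markers of other cells that marrow cultures can hold, 1 reached a TPM of 1 in both libraries: Acp5, an osteoclast and macrophage enzyme, at 5.98 and 2.47 TPM. Among protein-coding genes, 44.4% reached a TPM of 1 in both libraries and 19.7% a TPM of 10. The 25 markers summed to 11.2 and 6.55 TPM in replicates 1 and 2, with Pecam1 at 1.58 and 0.86 TPM, Kit at 0.48 and 1.13 TPM and Cd3e at 0 counts in both. In the second quantification Pecam1 also reached a TPM of 1 in both libraries, at 2.88 and 7.93 TPM, so its level is not settled. Acp5 had a log2 ratio of -1.204, replicate 2 over replicate 1, and its part in any difference between the libraries was not tested.

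D cyclins are made in response to growth signals and bind CDK4 and CDK6, and the resulting kinases phosphorylate the retinoblastoma proteins and so release E2F factors for entry into S phase. CDK inhibitors of the Cip/Kip family (Cdkn1a, Cdkn1b) and of the INK4 family (Cdkn2d) hold these kinases or the CDK2 complexes in check. The p53 protein is kept low by the ubiquitin ligase MDM2, whose gene is itself a p53 target, and when p53 accumulates it raises transcription of Cdkn1a, Mdm2, Ccng1 and Btg2 among many others. Macrophages depend on CSF1 to pass G1, and lipopolysaccharide is known to halt their division there, with p21, the product of Cdkn1a, among the inhibitors involved.

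All 10 genes reached 1 TPM in each library, a level that 44.4% of protein-coding genes reached. Cdkn1a, Trp53, Mdm2 and Ccng1, 4 of the 10, reached 10 TPM in each, against 19.7% of protein-coding genes. The median level of the 10 genes was 9.27 and 9.91 TPM in replicates 1 and 2, beside 0.42 and 0.445 TPM over all protein-coding genes. On the log2(TPM + 0.1) scale these medians were 3.26 ± 0.08 for the 10 genes and -0.91 ± 0.05 for protein-coding genes (SD, n = 2). In bulk nucleoplasmic RNA, more cells with a transcript and more transcript per cell cannot be told apart.

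Ordered by mean level, Mdm2 stood at the top with 76.2 ± 2.51 TPM (SD, n = 2, as for the means that follow), then Cdkn1a with 39.5 ± 5.20 TPM, Ccng1 with 18.5 ± 1.73 TPM and Trp53 with 12.8 ± 2.17 TPM. The ranges of these neighbours did not overlap, and each pair kept its order in both libraries and in both quantifications. These levels take all transcripts of a gene together. By coding transcripts alone Mdm2 was below Cdkn1a, as given below. Ccnd1 at 10.1 ± 1.12 TPM and Cdkn1b at 9.11 ± 2.02 TPM came next, and their ranges overlapped, with Ccnd1 the higher in replicate 1 only. In the second quantification Ccnd1 was higher in both libraries, at 4.77 and 5.74 TPM against 3.39 and 5.67 TPM for Cdkn1b. Ccnd3 followed at 7.25 ± 0.219 TPM, then Btg2 at 5.81 ± 1.25 TPM and Ccnd2 at 4.48 ± 0.622 TPM, which also overlapped, and whose order was the opposite in both libraries of the second quantification. Cdkn2d was lowest at 2.73 ± 0.764 TPM.

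**Figure D1:**
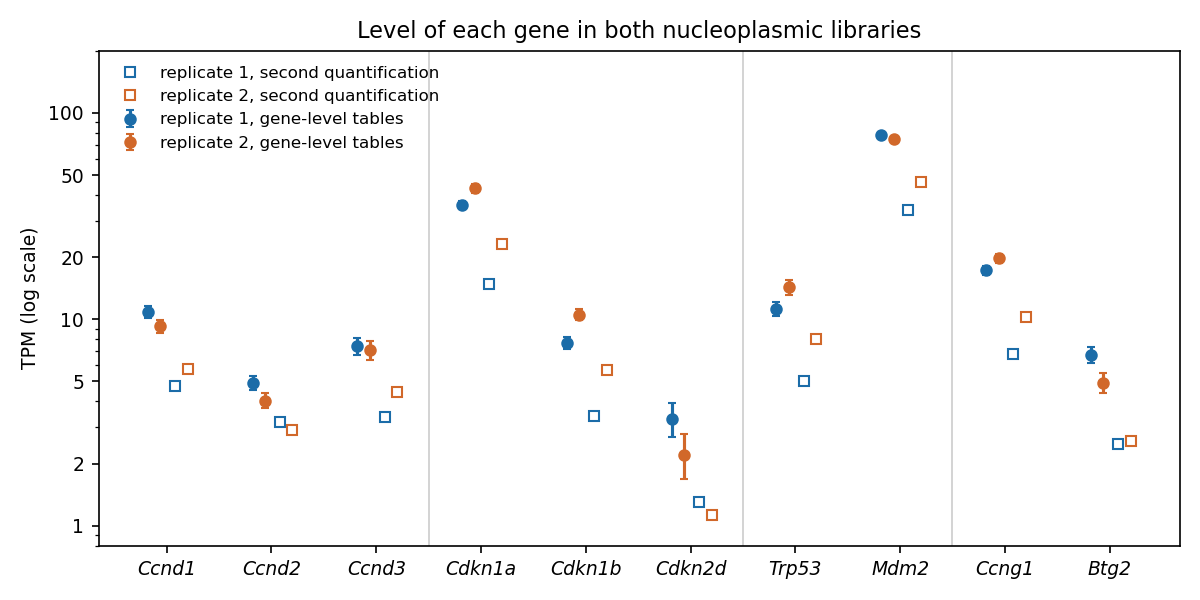
TPM of each gene on a log axis, with the D cyclins, CDK inhibitors, p53 and its inhibitor, and p53 targets from left to right. Filled circles are the gene-level tables, with bars for the exact 95% interval of the expected count, open squares are the second quantification, blue is replicate 1 and orange replicate 2; Mdm2 and Cdkn1a lie above the other genes in every library.

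The second quantification gave lower TPM for every one of the genes, between 0.437 and 0.679 times the gene-level value. Protein-coding genes together held 27.5% and 29.6% of TPM in the gene-level tables, against 14.96% and 21.2% in the second quantification. When TPM was rescaled to protein-coding genes alone, the second quantification came to between 0.704 and 1.11 times the gene-level value. Order and ratios within the set are therefore given below for both.

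Among the D cyclins, Ccnd1 (ENSMUSG00000070348.5, mm10, minus strand, chr7:144929931-144939925), the cyclin most tied to growth factor signals, had 10.9 and 9.27 TPM in replicates 1 and 2. Ccnd2 (ENSMUSG00000000184.12, minus strand, chr6:127125162-127152193), another D cyclin that is prominent in blood cells, had 4.92 and 4.04 TPM. Ccnd3 (ENSMUSG00000034165.16, plus strand, chr17:47505051-47599691), widely expressed in maturing blood cells, had 7.40 and 7.09 TPM. The ranges of these cyclins did not overlap one another: Ccnd1 was highest and Ccnd2 lowest in each library.

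Ccnd1 was at 2.21 and 2.29 times the level of Ccnd2 in replicates 1 and 2, and at 1.47 and 1.31 times that of Ccnd3. In the second quantification the same ratios were 1.499 and 1.98, and 1.42 and 1.29. Ccnd3 over Ccnd2 was 1.504 and 1.75 in the gene-level tables but 1.06 in replicate 1 of the second quantification, where the pair was nearly level, and 1.53 in replicate 2. All of these cyclins lie opposite other genes: Ccnd1 shares 1771 bases with the protein-coding gene LTO1 (640 and 510 counts), Ccnd3 shares 361 bases with Bysl (140 and 114 counts), and Ccnd2 overlaps the antisense gene 9330179D12Rik (7 and 10 counts). Whether counting used strand is not given, so reads in the shared bases cannot be told apart.

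Nearly all reads of Ccnd1 were assigned to its coding transcript Ccnd1-201, with 95.05% and 95.5% of counts and 85.8% and 88.7% of TPM. For Ccnd2, the coding transcript Ccnd2-201 took 82.6% and 86.9% of counts. Most of the remainder, 16.5% and 13.1% of counts and 25.6% and 22.0% of TPM, went to Ccnd2-208, an unspliced transcript annotated as a retained intron that contains 1 whole intron of Ccnd2-201. A short noncoding transcript, Ccnd2-207, was listed at 0 in the transcript tables of the gene-level source but took 28.6% and 18.6% of TPM in the second quantification, on 13.9 and 7.13 estimated counts.

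Ccnd3 has annotated starts in 2 main places, 88385 bases apart, and the sequence before each is shown because its transcripts divide between them. The 250 bases before each RefSeq start (GRCm38.p6, plus strand) are in lower case with the GC box, searched as GGGCGG on both strands, in capitals. The downstream window lies before the start of Ccnd3-205 at 47593470. Its end overlaps Ccnd3-206, which starts at 47593436 and to which the distance was counted.
Ccnd3 upstream start, chr17:47504801-47505050: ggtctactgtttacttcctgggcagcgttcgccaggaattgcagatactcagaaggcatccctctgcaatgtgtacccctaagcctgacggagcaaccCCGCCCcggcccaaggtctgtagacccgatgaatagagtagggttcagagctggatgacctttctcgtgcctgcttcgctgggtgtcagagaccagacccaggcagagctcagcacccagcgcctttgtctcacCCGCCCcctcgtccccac
Ccnd3 downstream start, chr17:47593217-47593466: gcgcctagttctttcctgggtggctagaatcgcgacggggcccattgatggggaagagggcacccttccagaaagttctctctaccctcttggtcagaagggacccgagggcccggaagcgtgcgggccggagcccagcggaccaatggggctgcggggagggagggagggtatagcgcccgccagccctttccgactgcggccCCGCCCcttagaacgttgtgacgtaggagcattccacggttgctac

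Transcripts from the downstream start of Ccnd3 held 94.5% of its TPM in replicate 1 and 77.2% in replicate 2, and 72.1% and 69.7% in the second quantification. Those from the upstream start held 5.53% and 22.8%, and 7.95% and 8.96% in the second quantification. The downstream start led in every case, while the higher upstream share of replicate 2 rests on 61.4 of its 336 expected counts and did not appear in the second quantification. Ccnd3-217, a partial coding transcript starting further on, took 20.0% and 21.3% of TPM in the second quantification and was listed at 0 in the other tables. Ccnd3-205, the leading coding transcript, took 70.3% and 59.6% of counts, and the retained-intron transcript Ccnd3-206, which spans 2 whole introns, 26.4% and 22.1%.

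**Figure D2:**
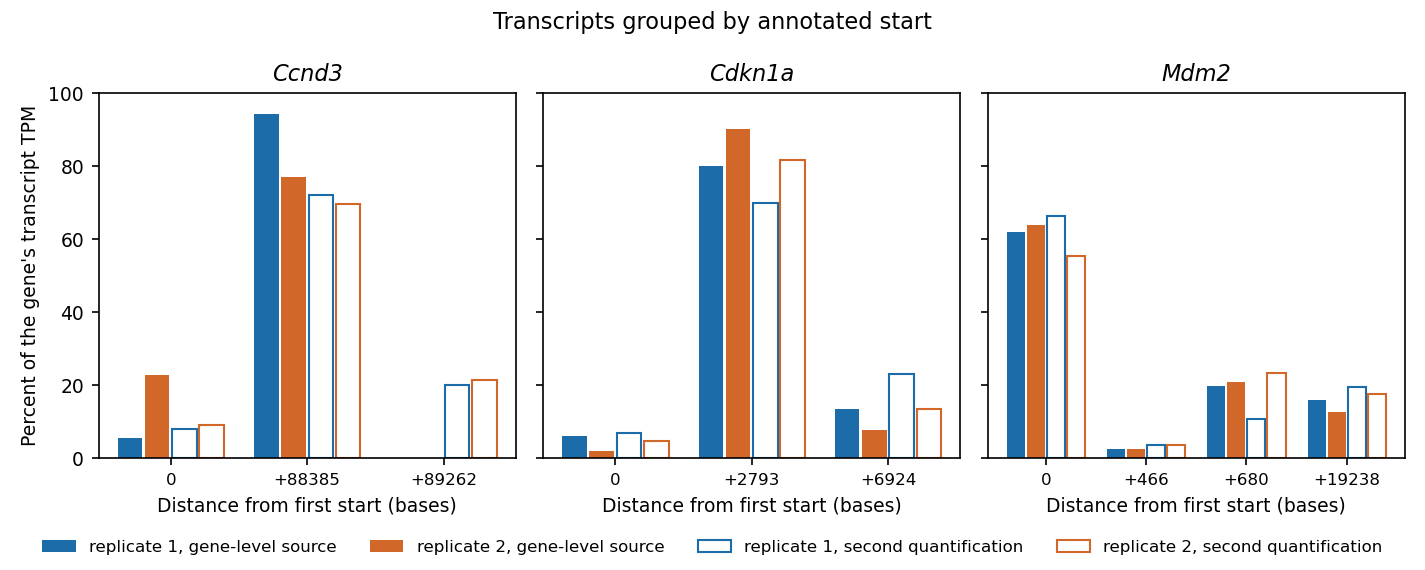
Percent of each gene's transcript TPM by annotated start, starts being grouped within 100 bases and placed by distance from the most upstream one, for Ccnd3, Cdkn1a and Mdm2; starts with no TPM are left out. Filled bars are the gene-level source, open bars the second quantification, blue replicate 1 and orange replicate 2; the second start of Ccnd3 and of Cdkn1a holds most TPM in all libraries.

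Among the CDK inhibitors, Cdkn1a (p21; ENSMUSG00000023067.14, plus strand, chr17:29090976-29100727) had 35.8 and 43.2 TPM in replicates 1 and 2, on 1578 and 1716 expected counts. Cdkn1b (p27; ENSMUSG00000003031.14, plus strand, chr6:134920401-134925513), which accumulates in quiescent cells, had 7.68 and 10.5 TPM on 798 and 991 counts. Cdkn2d (p19INK4d; ENSMUSG00000096472.2, minus strand, chr9:21288410-21291407), an inhibitor of CDK4 and CDK6, had 3.27 and 2.19 TPM on 110 and 65 counts. Cdkn1a was at 4.66 and 4.09 times the level of Cdkn1b, and at 4.36 and 4.08 times in the second quantification, so this ratio changed little with library or quantification. Cdkn1b over Cdkn2d was less steady, 2.35 in replicate 1 and 4.81 in replicate 2, and 2.61 and 5.02 in the second quantification.

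Against 44.4% of protein-coding genes, only 1 of the 5 other CDK inhibitor genes reached 1 TPM in both libraries: Cdkn2c (p18INK4c), at 1.65 and 1.24 TPM. It was below 1 in both libraries of the second quantification, at 0.798 and 0.846 TPM. Cdkn1c (p57) had 0.66 and 2.02 TPM in replicates 1 and 2, on 25 and 83 counts, and Cdkn3, a phosphatase that acts on CDKs, 0.24 and 0.69 TPM. Cdkn2a, which encodes p16INK4a and the MDM2 inhibitor ARF, had 0 counts in both libraries and 0 and 0.0658 TPM in the second quantification, so it was not detectable at this depth in the gene-level tables.

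Cdkn1a also has starts in 2 main places, 2793 bases apart, and the window before the upstream one is shown because it carries a pair of p53 motifs. The 250 bases before each start are from RefSeq (GRCm38.p6, plus strand). In the upstream window, capitals mark decamers of the p53 response element (searched by its usual degenerate form on both strands), namely GGACTAGCTT at 73 to 64 bases and GAACATGTCT at 51 to 42 bases before the start, both exact, and next to it TGACATGTTC at 41 to 32 bases, which has 1 mismatch. In the downstream window capitals mark GC boxes.
Cdkn1a upstream start, chr17:29090729-29090978: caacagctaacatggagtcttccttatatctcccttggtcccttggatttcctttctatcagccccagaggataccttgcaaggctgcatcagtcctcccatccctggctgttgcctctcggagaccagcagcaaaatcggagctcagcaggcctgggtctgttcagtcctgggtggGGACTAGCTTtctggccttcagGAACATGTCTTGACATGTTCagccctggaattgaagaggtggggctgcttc
Cdkn1a downstream start, chr17:29093519-29093768: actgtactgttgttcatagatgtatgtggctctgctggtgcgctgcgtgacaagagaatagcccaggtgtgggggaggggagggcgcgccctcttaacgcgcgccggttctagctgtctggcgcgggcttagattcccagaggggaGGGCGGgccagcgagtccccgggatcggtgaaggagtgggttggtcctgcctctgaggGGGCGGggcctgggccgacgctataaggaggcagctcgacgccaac

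Transcripts from the downstream start of Cdkn1a held 80.2% of its TPM in replicate 1 and 90.3% in replicate 2, and 70.0% and 81.9% in the second quantification. Those from the upstream start held 6.17% and 1.90% on 46.0 and 15 expected counts, and 6.97% and 4.63% in the second quantification. The p53 motifs lie before this start but also before the downstream one, outside its 250-base window. Which start they act on was not tested. Cdkn1a-203, which starts 6924 bases beyond the upstream start, took the remaining 13.6% and 7.79%, and 23.05% and 13.5% in the second quantification. Most of the upstream share was Cdkn1a-204, a noncoding transcript of a single exon, with 36 of the 46.0 counts in replicate 1 and all 15 in replicate 2. The coding transcript from that start, Cdkn1a-202, had 9.95 and 0 counts. The coding transcripts of Cdkn1a all carry 477 coding bases. On the other strand a gene of unproven coding status, AC167363.2, with 176 and 168 counts, overlaps the downstream start, sharing 93 exonic bases.

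RefSeq windows matched 8 of the 10 genes, all but Ccnd1 and Ccnd2, with 10 windows in all. An exact p53 decamer was found in 5 windows, of Cdkn1a (upstream), Cdkn2d, Trp53, Mdm2 and Ccng1, against 7.12% of all 32817 mouse windows of 250 bases. The windows lie before RefSeq starts, which can differ from the annotated starts used elsewhere here. The decamer of Cdkn2d (chr9:21291302-21291311) spans the annotated start of Cdkn2d-203 at 21291308. A pair of exact decamers separated by at most 13 bases was found for Cdkn1a alone, against 0.0640% of all windows. GC boxes lay in 7 of the 10 windows, against 32.7%, and a TATAAA box (both strands) in that of Trp53, against 12.4%. A match describes the letters of the window and says nothing of binding, and Btg2 and Cdkn1b, without an exact decamer in these windows, may hold one elsewhere.

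Cdkn1b reads were divided between transcripts that share their start and their 591 coding bases and differ by an intron of 2159 bases (chr6:134922084-134924242) beyond them. The form that keeps these bases, Cdkn1b-202, held 65.8% and 76.9% of TPM in replicates 1 and 2, and 63.3% and 81.9% in the second quantification. The spliced form, Cdkn1b-201, held 34.2% and 23.1%, and 36.7% and 18.1%. The form that keeps the intron led in every case, and its share was higher in replicate 2. Cdkn2d was assigned mainly to Cdkn2d-203, with 82.2% and 100% of TPM, and Cdkn2d-201, which has 150 coding bases against 498, was seen in replicate 1 only, at 17.8% on 17.4 counts. In the second quantification Cdkn2d-201 held 43.7% in replicate 1, on 49.0 counts, and 0 in replicate 2, which left 56.3% and 100% for Cdkn2d-203.

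Trp53 (ENSMUSG00000059552.13, plus strand, chr11:69580359-69591873), which encodes p53, had 11.2 and 14.3 TPM in replicates 1 and 2, on 605 and 585 expected counts. Mdm2 (ENSMUSG00000020184.15, minus strand, chr10:117688875-117710758) had 78.0 and 74.5 TPM on 3722 and 3739 counts, which placed it at the percentiles 97.8 and 98.0 of protein-coding genes. Mdm2 was thus at 6.94 and 5.20 times the level of Trp53, and at 6.74 and 5.73 times in the second quantification. It was also at 2.18 and 1.73 times that of Cdkn1a, and at 2.29 and 1.99 times in the second quantification. These ratios hold for all transcripts together. The coding transcripts of Mdm2 came to 16.0 and 23.4 TPM, below Cdkn1a-201 alone at 28.7 and 39.0 TPM. In the second quantification they came to 8.38 and 11.2 TPM, against 9.79 and 16.9 TPM. Coding transcripts held 20.5% and 31.5% of Mdm2 TPM but 79.4% and 67.1% of Trp53 TPM, so the ratio over Trp53 is lower for coding transcripts.

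Much of the Mdm2 signal was not assigned to coding transcripts. In nucleoplasmic RNA, precursors not yet spliced and finished transcripts that keep an intron cannot be told apart, for this or any other gene here. Its 2 coding transcripts, Mdm2-201 and Mdm2-202, together held 20.5% of TPM in replicate 1 and 31.5% in replicate 2, and 24.8% and 24.3% in the second quantification. Counted as reads, they held 35.8% and 44.3%. How this sum was divided between them differed between the quantifications (Mdm2-201 at 19.4% and 30.4% of TPM against 2.11% and 1.94%), and they differ by 46 bases (chr10:117709654-117709699), so only the sum is used here.

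Transcripts of Mdm2 annotated as retained introns held 56.7% and 45.2% of TPM, and 59.7% and 48.8% in the second quantification, but 33.3% and 29.4% of counts. The gap was widest for Mdm2-208, a 474-base transcript with 27.3% and 15.6% of TPM on 3.99% and 1.98% of counts. Mdm2-205, of 3007 bases and containing 2 whole introns, held 13.5% and 16.9% of TPM and 22.7% and 23.03% of counts. Mdm2-204 held 15.9% and 12.7% of TPM. Share of TPM and share of reads thus give different pictures of the same gene, although retained-intron transcripts were ahead of coding ones in TPM in both libraries of both quantifications.

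Mdm2-209, annotated as a target of nonsense-mediated decay, lacks an exon of 97 bases (chr10:117695953-117696049), starts within the second exon of Mdm2-201, and has 486 coding bases against 1467. It held 19.7% and 20.8% of TPM and 30.3% and 26.0% of counts. In the second quantification its share was 10.6% in replicate 1 and 20.1% in replicate 2. Set against coding transcripts alone, it made up 48.9% and 39.8% of the sum of both kinds, and 30.0% and 45.2% in the second quantification. The order of the replicates turned with the quantification, so the share of this form is known only to within that range.

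By start, Mdm2 transcripts beginning at the first exon held 61.9% and 64.0% of TPM, and 66.3% and 55.4% in the second quantification. The Mdm2 gene is known to be transcribed from an upstream promoter and from a p53-responsive promoter in its first intron. Mdm2-207, which begins within intron 1, held 2.5% and 2.51% of TPM on 15.1 and 13.0 counts, and 3.48% and 3.57% in the second quantification. Mdm2-206 also begins in intron 1, and was listed at 0 except in replicate 2 of the second quantification, where it held 3.28%. A group starting 680 bases beyond the first start, made up of Mdm2-209 and Mdm2-206, held 19.7% and 20.8%, and 10.6% and 23.3%. No annotated full-length coding transcript of Mdm2 starts in intron 1, so reads of such a transcript would be assigned to others.

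**Figure D3:**
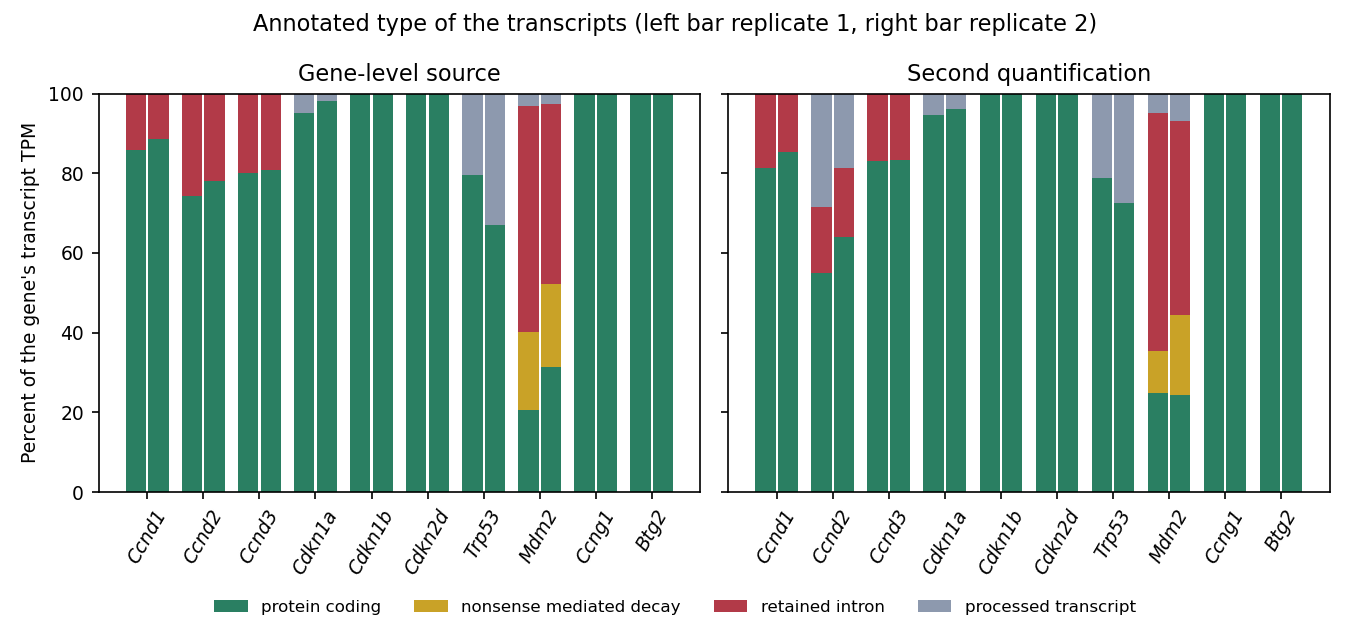
Percent of each gene's transcript TPM by annotated transcript type, in the gene-level source (left panel) and the second quantification (right panel), with replicate 1 as the left bar and replicate 2 as the right bar of each gene. Mdm2 has the largest retained-intron share of the genes shown, and Cdkn1b, Cdkn2d, Ccng1 and Btg2 were assigned to coding transcripts alone.

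For Trp53, coding transcripts held 79.4% and 67.1% of TPM, and 66.3% and 62.9% of counts. Trp53-205, a 3275-base noncoding transcript that contains 4 whole introns, held 20.6% and 19.4% of TPM and 33.7% and 35.5% of counts. Trp53-204 held 13.6% of TPM in replicate 2 on 8.99 expected counts, 1.54% of the gene's counts there, and was listed at 0 in replicate 1. As for Mdm2, the short transcript weighed more in TPM than in reads.

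The coding transcripts of Trp53 end in alternative ways, and the junctions are printed because mouse p53 is known to have a form with a different C terminus. Trp53-203 joins its last exons directly, while Trp53-202 keeps 96 more bases at the start of its last exon (chr11:69591254-69591349), which leaves 52 coding bases in that exon against 79. Each line gives, from the GRCm38 genome and the plus strand, 15 bases of the preceding exon in lower case and the first 15 of the last exon in capitals.
Trp53-203 junction: cagggctcactccagCTACCTGAAGACCAA
Trp53-202 junction: cagggctcactccagCCTCCAGCCTAGAGC

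The extended last exon of Trp53 made up 20.5% of coding TPM in replicate 1 and 16.8% in replicate 2, and 33.4% and 39.4% in the second quantification. The regular form therefore led in both libraries of both quantifications, but the minor share differed more between quantifications than between libraries. Trp53-201 and Trp53-203, which both have the regular exon, were divided in opposite ways by the quantifications (15.8% and 3.77% of TPM against 46.4% and 37.1% for Trp53-201), and so were added together.

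Transcripts that contain at least 1 whole intron of the gene's leading coding transcript were annotated for 4 of the 10 genes and took 16.5% and 13.1% of counts for Ccnd2, 26.4% and 22.1% for Ccnd3, 33.7% and 37.1% for Trp53, and 26.7% and 25.0% for Mdm2. In the second quantification these shares were 14.5% and 12.7% for Ccnd2, 27.0% and 24.2% for Ccnd3, 34.7% and 37.0% for Trp53, and 28.5% and 26.0% for Mdm2. Of 9520 protein-coding genes with introns that reached 1 TPM, 3170 have such a transcript. Over these 3170 genes the median share was 18.5% in replicate 1 and 19.3% in replicate 2, and 19.7% and 20.5% in the second quantification. By counts, Trp53 was highest of the 4, at the percentiles 70.9 and 72.7 of those genes, and Ccnd2 lay below the median. As shares of TPM the picture differed: Mdm2 had 40.8% and 32.5%, Trp53 20.6% and 32.9%, Ccnd2 25.6% and 22.0% and Ccnd3 14.4% and 11.7%, beside medians of 19.5% and 20.0% over all such genes. On that measure Ccnd2 lay above the median and Ccnd3 below it. Both measures may include reads of precursors not yet spliced. The other 6 genes have no such transcript in the annotation, although some of their transcripts include part of an intron (Ccnd1-203 and Cdkn1a-203) and the leading transcript of Cdkn1b itself keeps an intron of Cdkn1b-201.

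**Figure D4:**
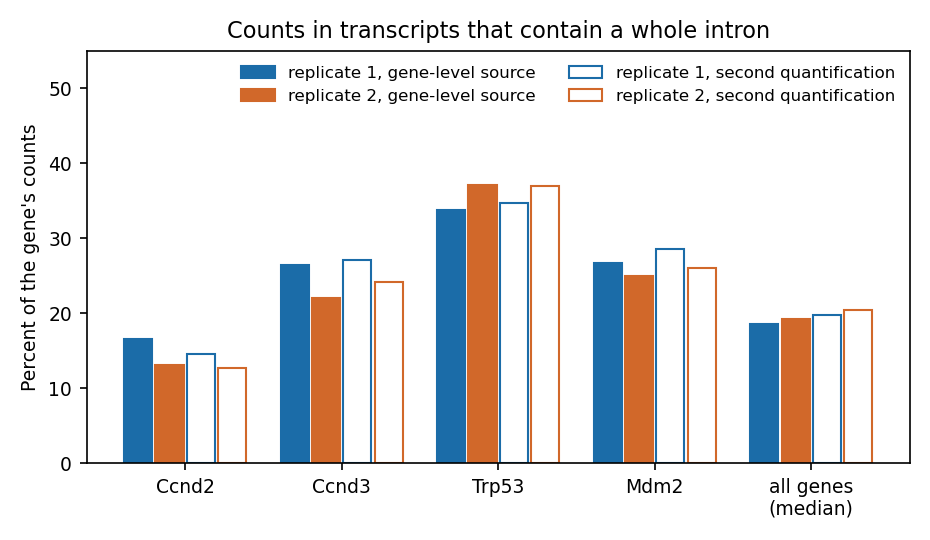
Percent of each gene's counts assigned to transcripts that contain at least 1 whole intron of its leading coding transcript, for the 4 genes that have one and, at the right, the median over 3170 protein-coding genes. Filled bars are the gene-level source and open bars the second quantification, blue replicate 1 and orange replicate 2; as shares of counts, Ccnd2 is below the median of all genes and Trp53, Mdm2 and Ccnd3 above it, while by TPM Ccnd2 is above and Ccnd3 below.

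Counted by annotated type instead, the median retained-intron share over the 4 genes with such a transcript (Ccnd1, Ccnd2, Ccnd3 and Mdm2) was 21.7% ± 1.56 of TPM (SD, n = 2), beside 30.0% ± 1.02 over the 6143 such protein-coding genes that reached 1 TPM. In the second quantification it was 17.5% ± 0.598, beside 35.0% ± 0.673. Mdm2 lay above the median of the 6143 genes in each case, and each of the D cyclins below it.

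Of the p53 targets, Ccng1 (ENSMUSG00000020326.7, minus strand, chr11:40748552-40755311), encoding cyclin G1, which recruits a phosphatase to MDM2, had 17.3 and 19.7 TPM in replicates 1 and 2, on 1641 and 1592 counts. Btg2 (ENSMUSG00000020423.6, minus strand, chr1:134075170-134079120), an antiproliferative gene whose product promotes mRNA deadenylation and which is also an immediate early gene, had 6.69 and 4.92 TPM on 487 and 305 counts. All reads of Ccng1 were assigned to Ccng1-201, and Btg2 has a single annotated transcript. Ccng1 over Btg2 was 2.58 in replicate 1 and 4.004 in replicate 2, and 2.73 and 3.97 in the second quantification. Cdkn1a over Ccng1 was 2.08 and 2.19, and 2.17 and 2.26, and so moved little.

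Between the libraries, none of the 9 genes whose mean count reached 100 differed by a log2 ratio (replicate 2 over replicate 1, on counts scaled to the library) of 1 or more, where 0.824% of the 10198 genes with such counts were higher and 1.18% lower. Each ratio sets 1 library against 1 other and has no replicate check or p-value, and starting RNA amount and replicate cannot be told apart. The median over the 9 genes was 0.21, with a range from -0.42 to 0.57, beside a median of -0.01 and a range between the 5th and 95th percentiles of -0.62 to 0.54 over all 10198. The biological coefficient of variation over the 14892 genes used for scaling was 0.186, although this spread may be technical. All 10 macrophage markers had fewer scaled counts in replicate 2, with log2 ratios from -1.04 for Fcgr1 to -0.06 for Cd14, and the part of this in the ratios that follow was not tested.

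Cdkn1b had the highest ratio, 0.57 (95% counting interval 0.43 to 0.70), followed by Cdkn1a with 0.38 (0.28 to 0.48) and Mdm2 with 0.26 (0.20 to 0.33). Trp53 and Ccng1 were both at 0.21 (0.04 to 0.37, and 0.11 to 0.31). These 5 genes had more scaled counts in replicate 2. Lower in replicate 2 were Btg2 at -0.42 (-0.63 to -0.21), and Ccnd1 at -0.17 (-0.31 to -0.03), whereas the intervals of Ccnd2 at -0.15 (-0.32 to 0.01) and Ccnd3 at -0.09 (-0.30 to 0.12) held 0. Cdkn2d, with a mean count of 87.5, was at -0.50 (-0.97 to -0.05), so its low depth leaves the widest interval of the 10.

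The sign of each ratio was the same in the second quantification, where they ran from -0.55 to 0.45. For Mdm2 the scaled count ratio was above 0 while TPM was slightly lower in replicate 2, since TPM also takes account of the lengths of the transcripts to which reads were assigned. Intervals cover counting error only.

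**Figure D5:**
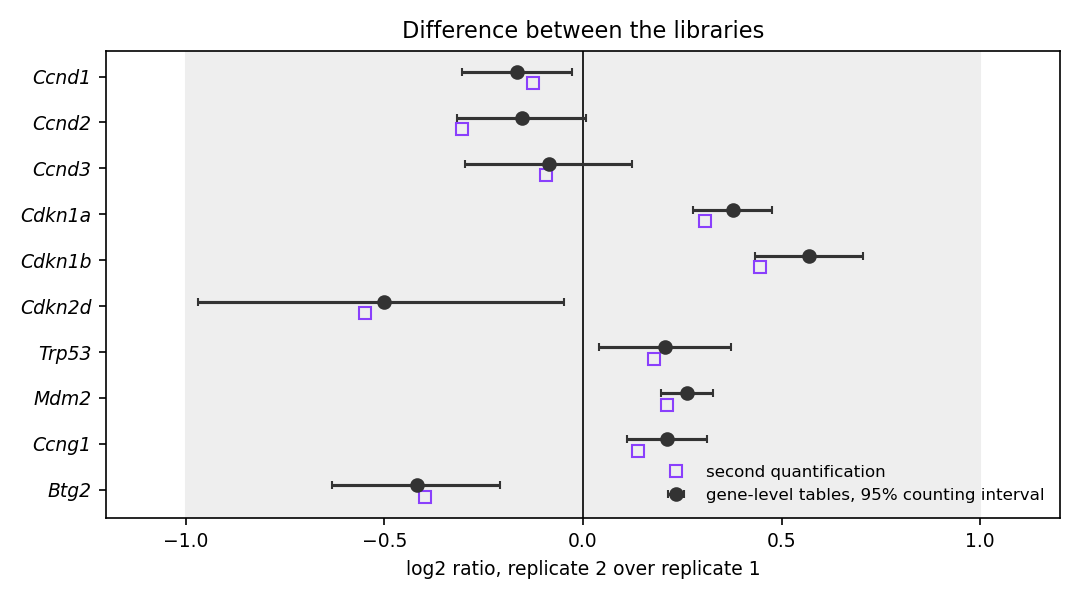
Log2 ratio of replicate 2 over replicate 1 for each gene, from scaled expected counts with exact 95% counting intervals (filled circles) and from the second quantification (open squares). The grey band is the range within 1 log2 unit, and all 10 genes lie in it, from -0.50 for Cdkn2d to 0.57 for Cdkn1b.

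The partners of these genes were examined as lists. For comparison, 44.4% of protein-coding genes reached 1 TPM in both libraries and 19.7% reached 10 TPM. Of 12 G1 kinases, E cyclins and activators, 10 reached 1 TPM in both libraries. Cdk4, a D cyclin partner, had 19.1 and 27.5 TPM, Cdk6, the other one, 21.8 and 23.2 TPM, and Skp2, which targets p27 for degradation, 12.7 and 11.1 TPM. The lowest was Cks1b, the cofactor of Skp2, at 0.50 and 0.77 TPM. Both kinases were thus above each of the D cyclins in both libraries. The TPM of Cdk4 was higher in replicate 2, but its scaled counts were level. Their log2 ratio was -0.0015, and -0.018 in the second quantification.

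Of 13 pocket proteins and E2F factors, 10 reached 1 TPM in both. Rb1, the retinoblastoma gene, had 28.0 and 21.1 TPM, and its relatives Rbl1 and Rbl2 had 17.5 and 13.0, and 11.5 and 13.3 TPM. The lowest in the gene-level tables was E2f7, a repressor, at 0.07 and 0.46 TPM, but the second quantification gave it 5.91 and 6.202 TPM, so its level is not settled by these tables.

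Of 14 cyclins and markers of S, G2 and M phases, 7 reached 1 TPM in both libraries, near the 44.4% of protein-coding genes. None reached 10 TPM, against 19.7% of protein-coding genes. Mcm3, a subunit of the replicative helicase, had 4.64 and 4.52 TPM. Mki67, a proliferation marker, had 3.07 and 4.04 TPM, and Top2a, topoisomerase II alpha, 2.59 and 3.88 TPM. Ccnb2, a mitotic cyclin, was lowest at 0.03 and 0.19 TPM. The median of the list was 1.01 and 1.53 TPM in replicates 1 and 2, above the 0.42 and 0.445 TPM of all protein-coding genes. That median was below each of the D cyclins, although Mcm3 was above Ccnd2 in replicate 2 (4.52 against 4.04 TPM).

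Among 16 regulators of p53, 13 reached 1 TPM in both libraries and 10 of them 10 TPM. Mdm4, the partner of MDM2 that also binds p53, had 71.4 and 67.4 TPM, slightly below Mdm2, but 51.3 and 60.7 TPM in the second quantification, above the 33.8 and 46.1 TPM of Mdm2 there. The acetyltransferase gene Ep300 had 53.4 and 52.5 TPM and the deubiquitinase gene Usp7, whose product acts on MDM2 and p53, 41.3 and 40.9 TPM. The p53 relatives Trp63 and Trp73 had 0 counts in both libraries, and so were not detectable at this depth.

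Of 16 other p53 targets in arrest and repair, 14 reached 1 TPM in both libraries and 3 of them 10 TPM: the kinase gene Plk2 with 38.0 and 41.2 TPM, Pcna, the sliding clamp of replication and repair, with 23.3 and 22.1 TPM, and the stress sensor gene Sesn1 with 19.0 and 20.1 TPM. Gtse1, which is expressed in G2 and M phases, was lowest at 0.47 and 0.86 TPM. Of 14 p53 targets in apoptosis, 11 reached 1 TPM in both. Bax had 42.4 and 35.5 TPM, the apoptosome gene Apaf1 36.04 and 28.2 TPM, and Bid 19.6 and 15.5 TPM, while Perp had 0 counts.

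In the family of Btg2, 4 of 5 genes reached 1 TPM in both libraries. Btg1 had 13.3 TPM in both replicates, Tob2 10.1 and 9.36 TPM, Tob1 2.55 and 3.15 TPM, and Btg4 0.18 and 0 TPM on 1 and 0 counts. Btg1 was above Btg2 in both. No gene of these pathway lists differed by a log2 ratio of 1 or more between the libraries at a mean count of at least 100. Over all genes with such counts, 0.824% were higher and 1.18% lower, so few calls would arise in lists of this size. Such counts were reached by 0 of the 5 CDK inhibitors and 5 of the 14 genes of S, G2 and M phases. Genes with fewer counts were not covered, such as Cdkn1c with a log2 ratio of 1.96 on 25 and 83 counts.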

How the data were processed

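Nucleoplasmic RNA of 1 group, in 2 libraries, was measured. The authors' deposited gene-level and transcript-level tables give expected counts and TPM, and a second deposited transcript table gives estimated counts and TPM. As the deposited notes state, the first derive from transcriptome alignments and the second from reads, on mm10 with GENCODE M21. What the sources used here do not give are programs, versions and use of strand, which leaves overlapping genes and similar transcripts uncertain. The 26345 entries naming no annotated gene held 1.01% and 0.336% of counts and were left out, as were 86 genes without a second value where it was used.

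Expected counts were rounded. Log2 ratios used edgeR 4.0.16 (TMM on 14892 genes past filterByExpr, prior count 0.5) in R 4.3.3, with DESeq2 1.42.0 size factors as an alternative. The scaling was tested on simulated data. Intervals are exact 95% (Clopper-Pearson on the 2 counts of a ratio, Poisson for a level). Python 3.11.15, pandas 2.3.3, numpy 2.4.6 and scipy 1.17.1 did the rest. With 1 group, no test between conditions was possible.

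The genes and lists were chosen with earlier results of these data known. Named were the 10 genes, the 3 highest and the lowest gene of each list by mean TPM, and transcripts with at least 10% of a gene's TPM in any library of either quantification. Trp73, Fcgr1, Ccnd1-203, Cdkn1a-202, Cdkn1a-204, Mdm2-206, Mdm2-207 and the overlapping genes were named outside this rule, after their values were seen.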

Additional observations from a re-analysis of the deposited data

How the results depend on the processing

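The 10 genes stayed at the TPM threshold in both libraries under each alternative tried: the second quantification, TPM rescaled over protein-coding genes, thresholds of 0.5 and 2, and either library alone. None differed by the ratio threshold under DESeq2 size factors, library totals alone, scaling on all genes with a count, a prior count of 2 or the second quantification. None did so either at a threshold of 0.58 with the main scaling, where Cdkn1b was just below it at 0.568. With library totals alone Cdkn1b was at 0.612 and would pass 0.58. All 10 log2 ratios kept their sign where the scaling, the prior count or the quantification was changed. The median level, 3.26 on the log2(TPM + 0.1) scale, was 2.29 in the second quantification, 5.06 with TPM rescaled over protein-coding genes and 3.39 with a pseudocount of 1, where units differ by construction, and 3.21 to 3.32 with 1 library left out. The median retained-intron share, 21.7%, was 17.5% in the second quantification, 21.3% as a share of counts and 20.6% to 22.8% with 1 library left out. Restricted to genes that reached 10 TPM in each library it was 50.9%, which is the value of Mdm2 alone. Of the 10 list counts, 8 were within 1.5 times in the second quantification, and the other 2 were CDK inhibitors outside the set (0 against 1) and other cell markers (2 against 1). No paired analysis was possible because the series has 1 group. Depth limits Cdkn2d, transcripts resting on under 20 counts and all genes at 0.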
